A study of Mus musculus with 7 samples.

Results

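The genes described here are the nuclear-encoded genes of the mitochondrial respiratory chain and ATP synthase in cultured mouse esophageal epithelial cells. They were chosen by name alone: every gene of the deposited count table whose symbol starts with Nduf, Uqcr, Sdha to Sdhd, Cox4 to Cox8 or Atp5, with at least 10 counts over all libraries. Of 94 such symbols, 89 met the count minimum, of 23955 genes in the table. The 5 left out were Ndufs5, Cox7b2 and Cox8c, each listed at 0 counts, Cox6b2 with 3 counts and Cox8b with 7. The counting tool and annotation are not stated, so a listed 0, as for the complex I gene Ndufs5, need not mean no expression. The members nearest the minimum were Cox7a1 with 17 counts and Cox4i2 with 25. These 2 did not pass the expression filter of the test, so 87 members were tested among 13768 genes.

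RNA was taken from 7 cell lines of mixed strain background, grown on plastic in KSFM medium. The 2 wild-type (WT) lines had wild-type p53 and no treatment label. The 3 mutant lines had the missense allele p53R172H and the 2 null lines were p53-/-, and the treatment label 4NQO (4-nitroquinoline 1-oxide, a carcinogen used on the mouse esophagus) was on all 5 of these lines. The p53 genotype and 4NQO can therefore not be told apart in either comparison with WT, and only the comparison of mutant with null sets groups with the same label side by side. No label ties a line to an animal of its own. The tests below thus compare groups with the spread among these 7 lines, which may be technical in part. Library totals ran from 12751118 to 47000225 counts, and the 89 members took between 0.835 and 1.09% of them.

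Trp53, the gene altered in these lines, was read first. It stood at 212 and 193 CPM (counts scaled to the TMM-normalized library size) in WT 1 and 2, at 172, 250 and 254 CPM in mutant 1, 2 and 3, and at 8.73 and 4.71 CPM in null 1 and 3, so the null libraries lay below all others. A missense allele leaves the transcript in place, so the level does not check the mutant label. All 7 markers of squamous epithelium passed the filter and summed to 26938 and 37467 CPM in WT, 6765 to 9781 CPM in mutant and 5808 and 9531 CPM in null lines. Of 8 fibroblast markers, the sums were 5.61 and 8.20 CPM in WT, 567, 9.73 and 376 CPM in mutant, and 8.03 and 420 CPM in null libraries, with 5 and 2 of the 8 at 0 in WT 1 and 2. The 4 leukocyte markers summed to 23.2 to 92.0 CPM, with Cd3e at 0 in all libraries. Of these 4, 3 were at 0 in both WT 1 and WT 2, and 2 in mutant 2. The WT sums of 74.1 and 78.9 CPM therefore rest on the remaining marker alone. Endothelial markers summed to at most 1.90 CPM. The part of these markers in the results below was not tested. In bulk RNA, fewer cells of a type and less RNA per cell cannot be told apart.

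The respiratory chain passes electrons from NADH (complex I) and succinate (complex II) through ubiquinone to complex III, and by cytochrome c to complex IV, where oxygen is reduced. Complexes I, III and IV pump protons across the inner mitochondrial membrane, and complex V, the ATP synthase, makes ATP as protons flow back. Most subunits are encoded in the nucleus and are assembled with a few subunits made from mitochondrial DNA. Complex IV has tissue isoforms of several subunits, and p53 is known to act on respiration, among others through Sco2, a copper chaperone of complex IV. No gene of the mitochondrial genome had a row in the table, so the mitochondrially made subunits were not analysed here.

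The promoters of the members were read for short motifs of factors known to drive respiratory chain genes. RefSeq windows of the mouse build GRCm38.p6, running from 250 bases before to 50 bases after a transcription start, were found for 74 of the 89 members, with 80 windows in all. The NRF1 motif searched was GCATGCGC, the ETS motif (of the kind bound by GABPA) CCGGAAG, the YY1 motif AAGATGGC and the HIF motif TACGTG, each on both strands. The last letters of the ETS motif are the first of the YY1 motif, so these can overlap. The NRF1 motif was in 15% of the members' windows and 2.71% of all 32851 windows. The ETS motif was in 23.8% against 8.86%, the YY1 motif in 15% against 2.75%, and the HIF motif in 1.25% against 3.23%. The members' windows had 58.3% G and C and all windows 53.8%. A match describes the letters only, and no match says only that these letters are not in the window.

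The matches below lie in members at the ends of the fold change order in mutant against WT, the ones the results turn on. Each run has 30 bases, 5′ to 3′ along the gene, with the motif in capitals. Uqcrc1 (chr9:108936668-108936697, plus strand) has the NRF1 motif in both orientations from base 31 of the transcript. Ndufaf1 (chr2:119662835-119662864, minus strand) has the ETS motif 18 bases before its start. Ndufs3 (minus strand) has one 27 bases before the start (chr2:90904731-90904760) and one in reverse at base 2 (chr2:90904703-90904732). Uqcrh (chr4:116075063-116075092, minus strand) has it in reverse 10 bases before the start. Ndufa3 (chr7:3617384-3617413, plus strand) and Atp5j2 (chr5:145191500-145191529, minus strand) have the YY1 motif just inside the transcript, from bases 23 and 24. Among these members, Uqcrc1, Ndufaf1, Ndufs3, Uqcrh and Ndufa3 were at the low end in mutant lines and Atp5j2 at the high end. Atp5l, also at the high end, has the NRF1 motif 240 bases before its start and the ETS motif in reverse 212 bases before it and at base 25, so all 3 motifs occurred at both ends. Its sites are not printed, since most of its transcript is shared with other genes. The high-end members Ndufa2, Ndufa4l2 and Cox6a2 had no promoter window here and were not searched, so the ends cannot be compared.
Uqcrc1: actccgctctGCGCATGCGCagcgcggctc
Ndufaf1: gcgggaccacaaCCGGAAGcgtggcgaacc
Ndufs3, upstream: ccccgcgtccgcCCGGAAGaagagtcactg
Ndufs3, downstream: tgcacatttccaCTTCCGGtccgtgccctt
Uqcrh: gagtatgccgcaCTTCCGGccaggtcgccg
Ndufa3: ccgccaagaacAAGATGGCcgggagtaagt
Atp5j2: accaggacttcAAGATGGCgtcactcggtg

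**Figure D1:**
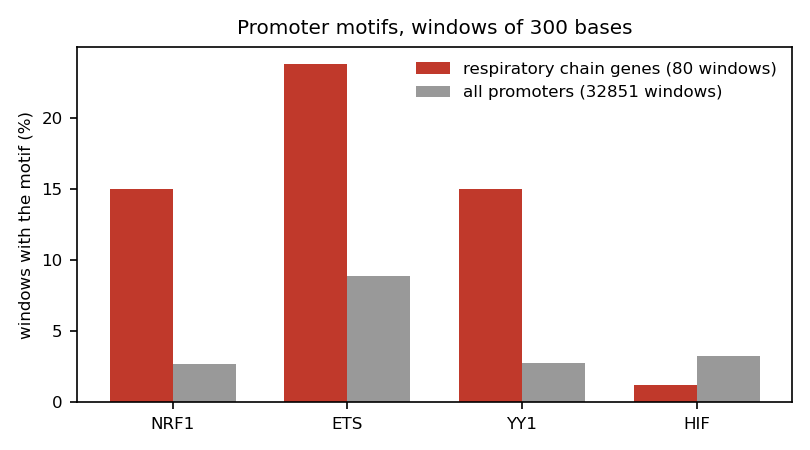
Share of 300-base promoter windows (vertical axis, %) that hold each motif on either strand, for 80 windows of respiratory chain genes (red) and all 32851 windows (grey). The NRF1, ETS and YY1 bars are higher for the respiratory chain genes, and the HIF bar is lower (1.25 against 3.23%).

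Levels between genes were compared as WT mean CPM per kilobase of 1 GENCODE transcript per gene. Atp5b, the catalytic beta subunit of ATP synthase, was highest at 685, followed by Cox4i1 at 551.7, Cox8a at 365.2, Ndufa4 at 355.9 and Atp5a1, the alpha subunit, at 315.2. The lowest were Cox4i2, at 0 in both WT libraries, Cox7a1 at 0.0866, Ndufa4l2 at 0.192, Cox6a2 at 1.61 and Atp5l at 2.26. The first 4 of these low genes are alternative isoforms, and Atp5l, subunit g of ATP synthase, is not. Of the 50-base stretches of its transcript, 84.8% also occur in transcripts of other genes, 12 of them pseudogenes, and how the authors counted reads with several matches is not given in the sources used here. Of the 89 members, 41 shared no such stretch, 30 shared over 10% and 4 over 50% (Atp5g2, Atp5l, Sdhaf1 and Cox7c), so the counts of those 30 carry that uncertainty.

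In mutant against WT lines, 1 member of 87 passed the test and 86 did not. Uqcrc1, a core subunit of complex III, stood at 228 and 248 CPM in WT 1 and 2, at 123, 111 and 77.0 CPM in mutant 1, 2 and 3, and at 134 and 130.1 CPM in null 1 and 3. All 5 libraries with altered p53 lay below both WT libraries. The log2 fold change in mutant lines was -1.20 (SE 0.211, edgeR adjusted p = 0.0312). Over all genes tested, 7.42% were called in this comparison, against 1 of 87 members (1.15%). Uqcrc1 was also the one member called with limma-voom and with other size factors, and its transcript shared no 50-base stretch with another gene. The call rested on the libraries: without WT 1, WT 2, mutant 2 or mutant 3 its edgeR adjusted p was 0.13, 0.213, 0.0779 and 0.0746. DESeq2 called 18 members, 6 higher and 12 lower, and 23.2% of all genes.

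The members' shares were also below those of all genes by the other measures in this comparison. At an unadjusted p under 0.05 there were 20 of 87 members, beside 30.5% of all genes. The mutant libraries lay wholly above WT in 17 members and wholly below in 19, beside 26.9 and 25.7% of all genes. A log2 fold change over 1 in size was found in 5 members, beside 28.6% of all genes. Among genes with a mean of at least 10 CPM the share over 1 was 3.66% of 82 members and 15.7% of 9406 genes. The median log2 fold change of the members was 0.09, with quartiles of -0.19 and 0.37. Over all genes it was 0.08, with quartiles of -0.44 and 0.61. Without mutant 3 the members' median was -0.02, so its sign rested on that library.

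In null against WT lines no member passed edgeR's test, where 0.138% of all genes did. At an unadjusted p under 0.05 there were 17 members, beside 20.2% of all genes. DESeq2 called 8 members, 3 higher and 5 lower, and 11.2% of all genes. The null libraries lay wholly above WT in 16 members and wholly below in 33, beside 29.1 and 27.1% of all genes, so the members' share was above the background on the lower side (37.9%) only. A log2 fold change over 1 in size was found in 2 members, Uqcrh and Cox6a2, beside 25% of all genes. The median was -0.09 in the members and 0.06 over all genes, and without WT 1 the members' median was 0.02.

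In mutant against null lines no member and no other gene passed edgeR's test (0% of all genes). At an unadjusted p under 0.05 there were 5 members, beside 14% of all genes. DESeq2 called 1 member, Ndufa4l2, and 4.39% of all genes. The mutant libraries lay wholly above the null libraries in 14 members and wholly below in 6, beside 16 and 15.1% of all genes. A log2 fold change over 1 in size was found in 2 members, Ndufa4l2 and Atp5l, beside 17.7% of all genes. The median was 0.15 in the members and 0.02 over all genes. The 3 comparisons share libraries, so their values are given side by side and not set against each other.

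**Figure D2:**
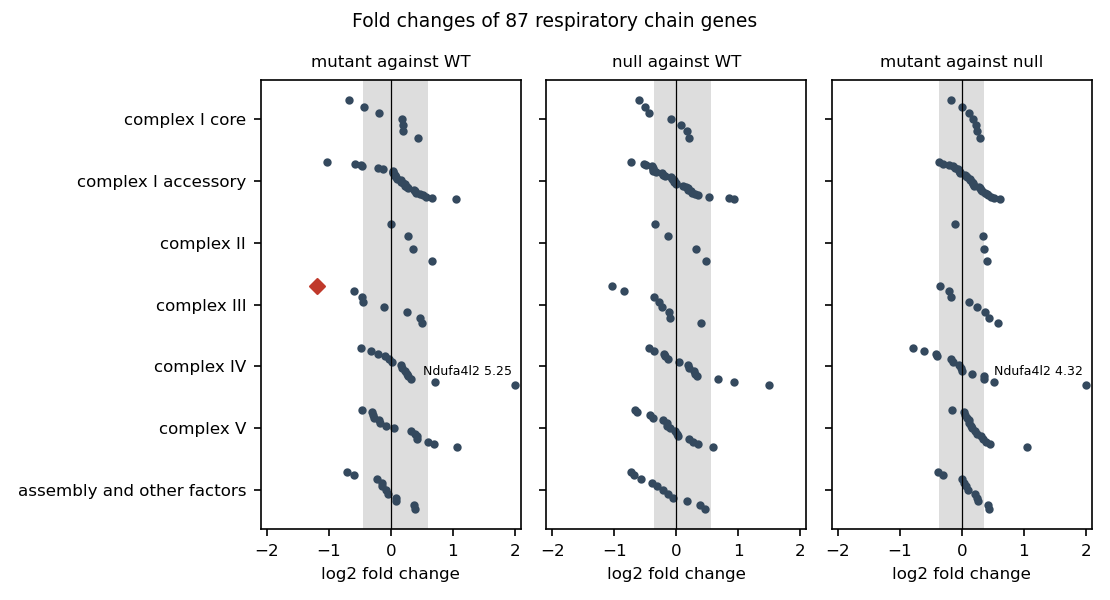
Log2 fold change (horizontal axis) of each of the 87 tested members by class in the 3 comparisons, with the middle 50% of all genes tested in grey. The red diamond is Uqcrc1, the 1 member called by edgeR, and Ndufa4l2 is drawn at the edge with its value, since it lies beyond the axis in mutant against WT and mutant against null.

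Complex I, the NADH dehydrogenase, was represented by 7 core and 28 accessory subunits, and none passed edgeR's test in any comparison. DESeq2 called, among others, Ndufs3 (adjusted p = 0.0157), Ndufa3 (0.00933) and Ndufa2 (0.00135) in mutant against WT, and Ndufa2 (0.0199) and Ndufa6 (0.0246) in null against WT. Ndufs3, a core subunit, stood at 49.5 and 55.9 CPM in WT, 35.7, 27.3 and 35.4 CPM in mutant and 38.8 and 35.7 CPM in null libraries. Both WT libraries were the highest, with a log2 fold change of -0.68 in mutant lines (SE 0.186, edgeR adjusted p = 0.0699), and 39.7% of its transcript is shared with other genes. Ndufs1, which carries iron-sulfur clusters, stood at 85.7 and 111 CPM in WT, 80.9 to 89.9 CPM in mutant and 69.7 and 75.2 CPM in null libraries. Its null libraries were the lowest of all 7, at -0.44 against WT (edgeR adjusted p = 0.235). Positive values in mutant against WT were found for 4 core subunits, 0.18 for Ndufs7, 0.20 for Ndufs8, 0.44 for Ndufv1, which binds NADH, and 0.19 for Ndufv2, with edgeR adjusted p from 0.212 to 0.635. The core class had a median of 0.18 in mutant and -0.09 in null against WT.

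The accessory subunits of complex I held members at both ends. Ndufa2 stood at 64.4 and 41.4 CPM in WT, 97.8, 99.2 and 132 CPM in mutant and 99.2 and 102 CPM in null libraries. All 5 libraries with altered p53 were above WT, with log2 fold changes of 1.05 in mutant (SE 0.242, edgeR adjusted p = 0.0502) and 0.93 in null lines (SE 0.258, adjusted p = 0.147). Ndufa3 went the other way, at 44.9 and 38.7 CPM in WT, 16.3, 26.6 and 18.8 CPM in mutant and 20.8 and 29.8 CPM in null libraries. Its log2 fold changes were -1.02 (SE 0.278, edgeR adjusted p = 0.0689) and -0.72 (SE 0.31, adjusted p = 0.254), again with no overlap with WT. Both genes encode small subunits of the same complex. Ndufa2 passed in mutant against WT without the filter (adjusted p = 0.0442), with the filter of 5 CPM in 2 libraries (0.0425) and with libraries thinned to the smallest (0.0442), all by edgeR.

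Other accessory subunits were named at the ends of the null comparisons. Ndufa6 stood at 69.8 and 54.1 CPM in WT, 98.4, 86.8 and 72.4 CPM in mutant and 126 and 96.8 CPM in null libraries, with null wholly above WT by 0.84 on the log2 scale (edgeR adjusted p = 0.144). Ndufa12 had its lowest values in the null libraries, 37.3 and 28.6 CPM, against 41.7, 46.2 and 63.7 CPM in mutant and 50.8 and 43.9 CPM in WT. It was at 0.62 in mutant against null (edgeR adjusted p = 0.34). Ndufa5 was at 0.53 in the same comparison (edgeR adjusted p = 0.472), with 31.6 CPM in mutant 1 but 55.9 and 64.6 CPM in mutant 2 and 3, and 33.0 and 37.5 CPM in null libraries, so the groups overlapped. Over the 28 accessory subunits the median log2 fold change was 0.16 in mutant against WT, with 22 values above 0, and -0.04 in null against WT, with 11 above 0. Values ran from -1.02 to 1.05 and from -0.72 to 0.93, and 6 and 3 of them had an unadjusted p under 0.05, beside 30.5 and 20.2% of all genes.

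Complex II, succinate dehydrogenase, is the one complex that also serves the tricarboxylic acid cycle and is encoded wholly in the nucleus. Sdhd, a membrane anchor, stood at 113 and 84.3 CPM in WT, 141, 162 and 166 CPM in mutant and 113 and 132 CPM in null libraries. The mutant libraries were the 3 highest, with a log2 fold change of 0.66 against WT (SE 0.184, edgeR adjusted p = 0.0724). DESeq2 called Sdhd higher in mutant against WT (adjusted p = 0.0131). Sdhb, the iron-sulfur subunit, stood at 49.5 and 53.8 CPM in WT, 66.0, 64.2 and 69.2 CPM in mutant and 65.4 and 78.7 CPM in null libraries. All altered lines lay above WT, at 0.36 (edgeR adjusted p = 0.161) and 0.48 (adjusted p = 0.192). Sdha, the catalytic flavoprotein, overlapped between mutant and WT lines, with 217 and 208 CPM in WT and 186, 272 and 177 CPM in mutant libraries. Its log2 fold change was -0.00 (95% interval -0.51 to 0.50), and both null libraries had 167 CPM. Sdhc, the other anchor, was at 0.28 in mutant and -0.13 in null against WT, with overlapping libraries in each.

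The 8 members in complex III, the cytochrome bc1 complex, had the lowest class median against WT, -0.28 in mutant and -0.26 in null lines. Cyc1, the cytochrome c1 of this complex, falls outside the name rule and is not in that median. Its log2 fold changes were 0.47 in mutant lines, wholly above WT, and 0.14 in null lines (edgeR adjusted p = 0.186 and 0.749). In mutant against WT, 3 of the 8 members were above 0, and 4 were below 0 with an unadjusted p under 0.05, beside 14.6% of all genes. DESeq2 called, among others, Uqcrh (adjusted p = 0.0364) and Uqcrfs1 (0.0456) lower in mutant against WT. In null against WT it called Uqcrh (adjusted p = 0.00147) and Uqcrc1 (0.0224) lower. Uqcrh, the hinge protein that binds cytochrome c1, stood at 73.2 and 102 CPM in WT, 50.1, 60.4 and 63.0 CPM in mutant and 43.2 and 42.2 CPM in null libraries. The 3 groups did not overlap, with null lowest, and its log2 fold changes were -1.04 in null (SE 0.217, edgeR adjusted p = 0.106) and -0.60 in mutant lines (SE 0.194, adjusted p = 0.0995). Uqcrfs1, the Rieske iron-sulfur protein, stood at 113 and 129 CPM in WT, 77.5, 96.7 and 91.8 CPM in mutant and 109 and 96.9 CPM in null libraries, at -0.45 in mutant lines (edgeR adjusted p = 0.116). Uqcrc2, the partner core protein of Uqcrc1, stood at 216 and 219.7 CPM in WT, 146, 223 and 232 CPM in mutant and 154 and 183 CPM in null libraries. Mutant 2 and 3 were at the WT level or above and mutant 1 was far below, a log2 fold change of -0.12 (95% interval -0.66 to 0.42) against -1.20 (95% interval -1.70 to -0.70) for Uqcrc1. The difference between these 2 genes was not tested. Uqcrb, a subunit next to the quinone site, was at 0.59 in mutant against null (edgeR adjusted p = 0.308), with 64.5, 88.9 and 97.1 CPM against 56.1 and 55.1 CPM, and 43.4% of its transcript is shared with other genes. The remaining subunits were Uqcr10 at -0.46 in mutant against WT (edgeR adjusted p = 0.0893), Uqcr11 at 0.26 and Uqcrq at 0.50, so both directions were found in 1 complex.

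**Figure D3:**
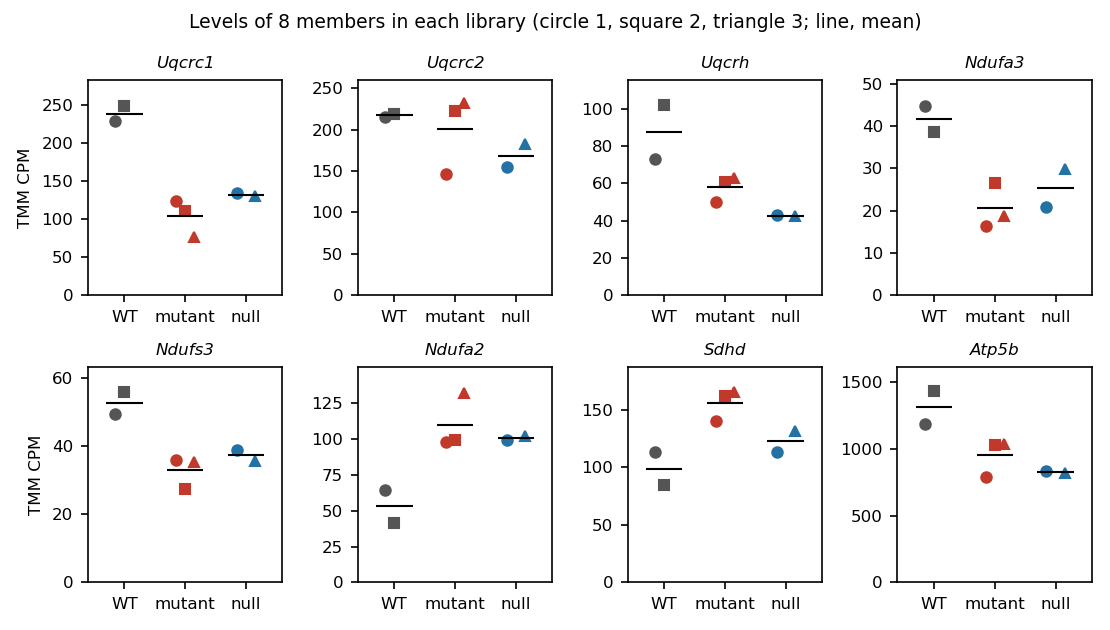
Level (vertical axis, TMM-normalized CPM from 0) of 8 members in each library of the WT (grey), mutant (red) and null (blue) lines, with group means as lines. Uqcrc1, Uqcrh, Ndufa3, Ndufs3 and Atp5b have both WT libraries above all others, Ndufa2 has both below all others, and in Uqcrc2 and Atp5b mutant 1 is the lowest library (146 and 793 CPM).

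Complex IV, cytochrome c oxidase, had 14 tested members and class medians of 0.17 in mutant and 0.20 in null against WT, each with 9 values above 0. None passed edgeR's test. DESeq2, read for the named genes only, called Ndufa4l2 (adjusted p = 0.00238) and Ndufa4 (0.0192) in mutant against WT. It also called Cox6a1 (0.00212) in null against WT and Ndufa4l2 (0.0317) in mutant against null. Cox4i1, the regulatory subunit found in most tissues, stood at 439 and 406 CPM in WT, 312, 447 and 426 CPM in mutant and 499 and 369 CPM in null libraries, with overlap in every comparison. Cox5a was at 0.28 in both comparisons with WT and Cox5b at 0.17 and -0.18, all with overlapping libraries and edgeR adjusted p of 0.435 or more. Cox6a1 stood at 164 and 138 CPM in WT, 170.3, 196 and 179.6 CPM in mutant and 241 and 244 CPM in null libraries. The groups were ordered WT, mutant, null without overlap, at 0.68 in null against WT (SE 0.162, edgeR adjusted p = 0.124) and -0.41 in mutant against null (SE 0.146, adjusted p = 0.314). Cox7a2l, which helps to join complexes III and IV in supercomplexes, stood at 103 and 99.1 CPM in WT, 67.0, 91.9 and 85.0 CPM in mutant and 151 and 97.6 CPM in null libraries, at -0.61 in mutant against null (edgeR adjusted p = 0.321). Cox7c was at -0.41 in that comparison (edgeR adjusted p = 0.404), with 27.5, 29.9 and 22.2 CPM against 38.4 and 32.2 CPM, and 53% of its transcript is shared with other genes. Ndufa4, once counted to complex I and now to complex IV, stood at 214 and 220.4 CPM in WT and between 142 and 173 CPM in the 5 altered lines, at -0.48 in mutant (edgeR adjusted p = 0.0935) and -0.44 in null lines (adjusted p = 0.222).

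The alternative isoforms of complex IV were rare in these cells. Ndufa4l2, a paralog of Ndufa4 known as a hypoxia-inducible gene, had 1 and 4 counts in WT, 26, 233 and 534 counts in mutant and 5 and 12 counts in null libraries. As a share of the counts of Ndufa4 and Ndufa4l2 together this was 0.0159 and 0.147% in WT, 0.372, 3.5 and 6.62% in mutant and 0.103 and 0.263% in null libraries. The intervals of mutant 2 (3.07 to 3.97%) and mutant 3 (6.09 to 7.19%) lay above those of all other libraries, while that of mutant 1 (0.243 to 0.544%) overlapped those of WT 2 and null 3. The log2 fold change was 5.25 in mutant against WT (SE 1.70, edgeR adjusted p = 0.0995) and 4.32 against null (SE 1.57, adjusted p = 0.317), both on few WT and null counts. Without mutant 1 it passed in mutant against WT (5.81, edgeR adjusted p = 0.0442).

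Cox6a2, the muscle isoform of Cox6a1, made up 1.02 and 0.351% of the pair in WT, 0.735, 1.56 and 0.622% in mutant and 0.628 and 1.92% in null libraries. Its 2 highest shares were in mutant 2 and null 3, 1 line of each group, and its log2 fold changes were 0.72 in mutant and 1.50 in null against WT (edgeR adjusted p = 0.6 and 0.4). The summed muscle markers were 87.7 CPM in null 3, 1.45 CPM in mutant 2 and at most 23.5 CPM in the other libraries. Their part in the share was not tested. Cox4i2, the lung isoform of Cox4i1, had 0 counts in both WT libraries, 1, 2 and 7 in mutant and 1 and 14 in null libraries, and at most 0.144% of the pair. Cox7a1, the muscle isoform of Cox7a2, had 2 and 0 counts in WT, 1, 3 and 1 in mutant and 6 and 4 in null libraries. Shares are of counts, with no correction for length, and their 95% exact binomial intervals cover counting error only.

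Complex V had 15 tested members, none of which passed edgeR's test, with medians of 0.05 in mutant and -0.10 in null against WT. DESeq2, read for the named genes only, called Atp5j2 (adjusted p = 0.013) and Atp5b (0.044) in mutant against WT. In null against WT it called Atp5b (0.0157) and Atp5j (0.0192). Atp5b stood at 1190.5 and 1434 CPM in WT, 793, 1034 and 1035 CPM in mutant and 834 and 818 CPM in null libraries. Both WT libraries were the highest, with log2 fold changes of -0.46 in mutant (SE 0.194, edgeR adjusted p = 0.167) and -0.67 in null lines (SE 0.216, adjusted p = 0.181). Atp5a1, its partner in the catalytic head, overlapped with WT in mutant lines (512, 617 and 811 CPM against 784 and 774 CPM) and lay below it in null lines (539.9 and 654 CPM, edgeR adjusted p = 0.412). Atp5c1, the central stalk, had its lowest values in the null libraries, 152 and 158 CPM, against 192 and 224 CPM in WT and 166 to 197 CPM in mutant libraries. Atp5j2, subunit f of the membrane part, stood at 109 and 76.8 CPM in WT, 131, 159 and 163 CPM in mutant and 145 and 133 CPM in null libraries. All altered lines were above WT, at 0.70 in mutant lines (SE 0.199, edgeR adjusted p = 0.0756). Atp5l was at 1.06 in mutant against WT and 1.05 against null (edgeR adjusted p = 0.233 and 0.415), on levels of 0.893 to 3.12 CPM only. In mutant against null, 14 of the 15 fitted values of complex V were above 0 beside 60 of 87 members and 7060 of 13768 genes, and only Atp5g2 was below.

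Atp5g1, Atp5g2 and Atp5g3 encode the same mature ring protein of ATP synthase with different import sequences. Atp5g2 made up 9.46 and 14.2% of the counts of the 3 genes in WT, 8.45, 8.06 and 5.31% in mutant and 11.6 and 7.92% in null libraries. The 2 WT libraries themselves differed beyond counting error (intervals 8.87 to 10.1% and 12.9 to 15.7%), and null 3 lay among the mutant libraries. The level of Atp5g2 was 29.2 and 28.6 CPM in WT and 21.0 to 29.5 CPM elsewhere, whereas Atp5g3 was at 201 and 108 CPM in WT, 178, 231 and 293 CPM in mutant and 159 and 197 CPM in null libraries. Atp5g1 lay between 56.9 and 83.1 CPM in all libraries. Atp5g2 shares 87.4% of its 50-base stretches with 2 pseudogenes, so its share is uncertain.

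**Figure D4:**
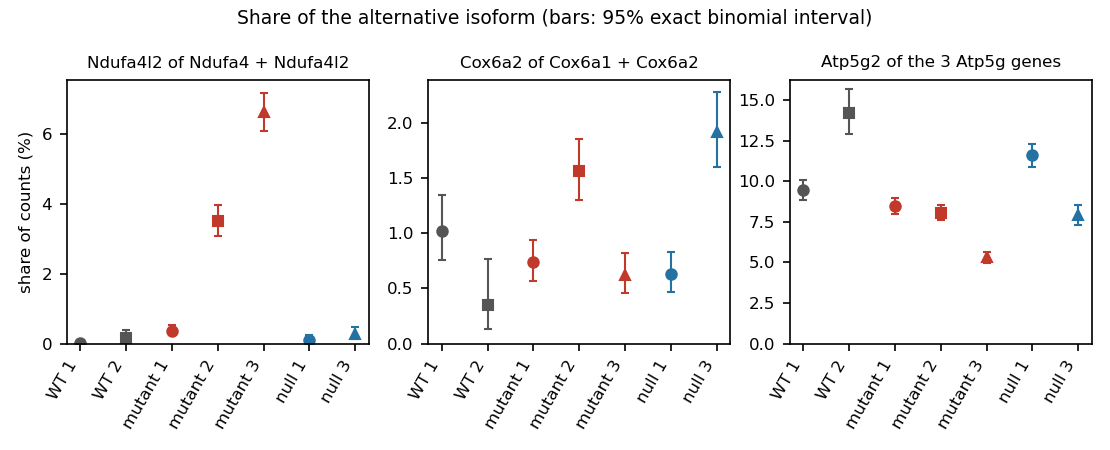
Share of counts (vertical axis, %) taken by Ndufa4l2, Cox6a2 and Atp5g2 within their gene groups in each of the 7 libraries, with 95% exact binomial intervals as bars. Ndufa4l2 is high in mutant 2 and 3 (3.5 and 6.62%), Cox6a2 in mutant 2 and null 3 (1.56 and 1.92%), and Atp5g2 is highest in WT 2 (14.2%).

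The members that are assembly or other factors numbered 11. Ndufaf1, which helps to build complex I, stood at 24.9 and 28.9 CPM in WT, 19.3, 14.8 and 15.3 CPM in mutant and 17.5 and 14.8 CPM in null libraries. Both groups lay below WT without overlap, at -0.71 (SE 0.226, edgeR adjusted p = 0.0962) and -0.73 (SE 0.252, adjusted p = 0.192). DESeq2 called Ndufaf1 lower in mutant against WT (adjusted p = 0.039). Atp5s, now named Dmac2l, stood at 15.8 and 17.8 CPM in WT and 9.83 to 12.6 CPM in the altered lines, at -0.69 in null against WT (edgeR adjusted p = 0.232). Ndufaf3, another assembly factor of complex I, was at -0.39 in mutant against null with overlapping libraries (edgeR adjusted p = 0.632). The class median was -0.07 in mutant and -0.22 in null against WT, with values from -0.71 to 0.38 and from -0.73 to 0.47.

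The 3 mutant lines were not alike in these genes. As the median log2 ratio to the WT mean over the 87 members, mutant 1 stood at -0.19 and mutant 2 and 3 at 0.24 and 0.25. The WT libraries were at 0.06 and -0.06 and the null libraries at -0.07 and -0.11. Over all genes the medians of the 5 altered lines were between 0.03 and 0.06. Mutant 1 was the lowest of the 3 mutant libraries in 70 of 87 members (80.5%), beside 36.8% of all genes and 44.3% of those with a mean of at least 10 CPM. This pattern was chosen after the values were seen, and it is a description of these 3 libraries with no test. It was not particular to the members. The medians of 76 mitochondrial ribosome genes were -0.05 in mutant 1 and 0.37 and 0.34 in mutant 2 and 3. Those of 15 genes listed as electron carriers were 0.02, 0.28 and 0.36 in the same order. That list also holds Cyc1, the dehydrogenases Dhodh and Gpd2, and ubiquinone synthesis genes such as Coq5.

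By class, mutant 1 was lowest in 6 of 7 core and 24 of 28 accessory subunits of complex I, 2 of 4 subunits of complex II, 7 of 8 of complex III, 12 of 14 of complex IV, 11 of 15 of complex V and 8 of 11 factors. Uqcrc1 was an exception, with its highest mutant value in mutant 1. The other 4 members highest there were Ndufs3, Ndufaf1, Ndufa6 and Ndufa13. The range among the 3 mutant libraries was larger than the difference between the mutant and WT means in 56 of 87 members (64.4%), beside 57.5% of all genes. Mutant 1 had the largest library, with 47000225 counts. Its summed fibroblast markers (567 CPM) were on the side of mutant 3 (376 CPM), not of mutant 2 (9.73 CPM), and its summed squamous markers of 8679 CPM lay between theirs (9781 and 6765 CPM). The part of depth and of these markers in the pattern was not tested.

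Other scalings kept mutant 1 the lowest in most members and moved its median. It was lowest in 69 members with RLE factors, 62 with upper-quartile factors and 69 with library size alone, and its member median was -0.18, -0.16 and -0.05 in the same order. Library size alone raised the median of all genes in mutant against WT from 0.08 to 0.19. With it, 3 class medians near 0 turned: the factors to 0.04 in mutant against WT, the accessory subunits of complex I to 0.04 in null against WT, and complex IV to 0.00 in mutant against null. With RLE and upper-quartile factors no class median changed sign in any of the 3 comparisons.

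**Figure D5:**
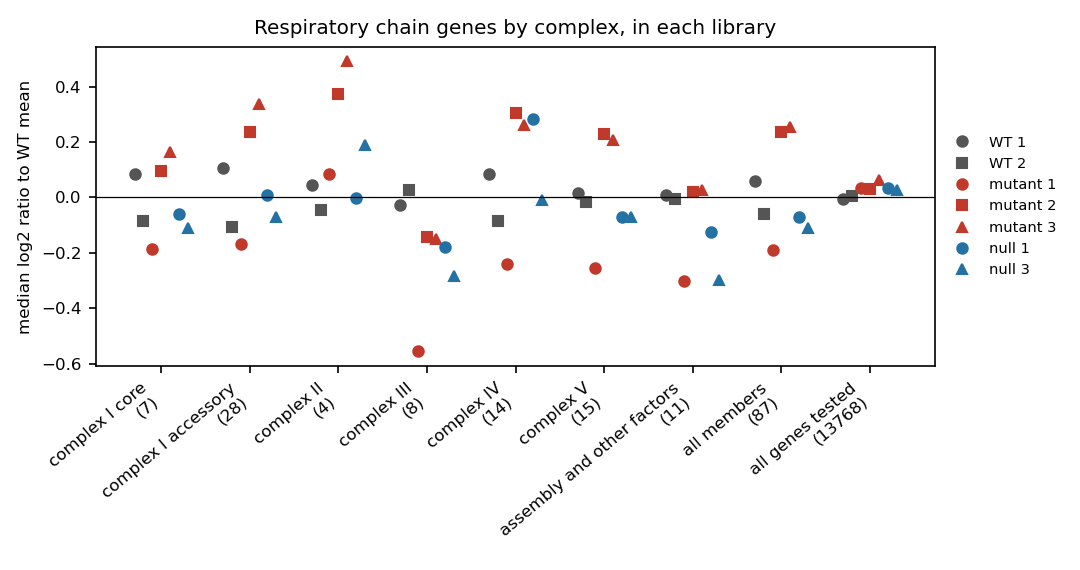
Median log2 ratio to the WT mean (vertical axis) of the tested members of each class in each library, with the number of genes in brackets, for WT (grey), mutant (red) and null (blue) lines. Mutant 1 (red circle) lies below mutant 2 and 3 in every class, and over all genes the 7 libraries lie close to 0.

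Genes of the same pathway outside the members were read from lists chosen by role. In mutant against WT, edgeR called 3.3% of all genes higher and 4.13% lower, the background for the counts that follow. Of 39 assembly factors, edgeR called 1 higher in mutant than WT lines and none lower. Cox18, which inserts a complex IV subunit into the inner membrane, rose from 19.4 and 20.1 CPM in WT to 37.3, 55.9 and 49.4 CPM in mutant lines, and stood at 35.1 and 37.6 CPM in null lines. Its log2 fold change was 1.27 (SE 0.22, edgeR adjusted p = 0.0307). Of 76 mitochondrial ribosome genes, edgeR called 2 higher, a share near that background, and none lower. They were Mrpl9, higher by 1.21 (edgeR adjusted p = 0.0376) and Mrpl2, higher by 0.78 (adjusted p = 0.0495), with a list median of 0.25 beside 0.08 for all genes. Mrpl2 no longer passed with limma-voom, without the filter, with thinned libraries or in a fit of the 2 groups alone, and Mrpl9 not with limma-voom. Of 18 tricarboxylic acid cycle genes, edgeR called 1 lower and none higher: Fh1, fumarate hydratase, fell from 69.1 and 77.5 CPM to 42.4, 46.4 and 38.0 CPM, a log2 fold change of -0.79 (edgeR adjusted p = 0.0384), and stood at 42.8 and 39.6 CPM in null lines.

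Of 19 regulators, edgeR called 2 lower in mutant than WT lines and none higher, while DESeq2, read for the named genes only, also called Ppargc1a (adjusted p = 0.00713) and Gabpa (0.0475) higher. Esrra, a nuclear receptor that drives oxidative genes, fell from 79.0 and 62.9 CPM to 24.2, 30.3 and 20.7 CPM (log2 fold change -1.50, edgeR adjusted p = 0.0329) and stood at 53.1 and 32.8 CPM in null lines. Ppard, another nuclear receptor of lipid oxidation, fell by 1.09 on the log2 scale (edgeR adjusted p = 0.0326). Ppargc1a, the coactivator of respiratory genes, stood at 0.068 and 0.325 CPM in WT, 0.692, 7.71 and 2.71 CPM in mutant and 0.426 and 1.10 CPM in null lines (edgeR adjusted p = 0.0967). Among the mutant lines it was lowest in mutant 1. Nrf1 and Tfam were at -0.01 and 0.07 in mutant against WT, and Gabpa at 0.61 (edgeR adjusted p = 0.103), while Hif1a was at -0.45 and Myc at 0.45 (adjusted p = 0.212 and 0.287). Of the 15 genes listed as electron carriers, none passed edgeR's test in this comparison. Among them 2 had an unadjusted p under 0.05, beside 30.5% of all genes. The smallest p were those of Etfdh (0.70, edgeR adjusted p = 0.0592) and Coq5 (0.63, adjusted p = 0.094). DESeq2 called both (adjusted p = 0.00596 and 0.0395), and edgeR called Etfdh with the filter of 5 CPM in 2 libraries (0.0493) and without mutant 1 (0.0418).

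Sco2 stood at 8.61 and 6.98 CPM in WT, 3.84, 6.24 and 5.58 CPM in mutant and 3.96 and 5.54 CPM in null lines. The altered lines all lay below WT, but neither difference passed (log2 fold changes -0.58 and -0.72, edgeR adjusted p = 0.346 and 0.382). Aifm1, an inner membrane protein needed for complex I, was at 0.21 in mutant and -0.37 in null against WT, without a call. In null against WT and in mutant against null no gene of these lists was called by edgeR, while DESeq2, not read for every listed gene, called at least Ppard (adjusted p = 0.00187) and Fh1 (0.00226) lower in null than WT lines. The 6 outside genes called in mutant against WT no longer passed without WT 1, WT 2, mutant 2 or mutant 3.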

How the data were processed

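RNA of the 7 lines was sequenced with the TruSeq Stranded mRNA kit, per the labels' protocols. The authors aligned reads with STAR 2.5.1b to the mouse build mm9, per the submitters' processing notes. They deposited 1 table of raw counts per gene, read from the values as whole numbers. For the counting tool, strand setting, annotation and reads with several matches, nothing is stated in the sources used here. Of 24047 rows, 92 spike-in names held 0 counts and were left out, 27 names were dates, and 2 names were repeated.

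Counts were tested with edgeR 4.0.16 (TMM factors, filterByExpr by group, quasi-likelihood test) in R 4.3.3, in 1 fit of all 7 libraries with group as the only term. P-values were adjusted by Benjamini-Hochberg over all 13768 genes tested, with a threshold of 0.05. The SE of a log2 fold change was derived from its size and the quasi-likelihood F statistic, and its 95% interval used that SE. Both are approximate, above all where counts were few. The biological coefficient of variation was 0.485. Levels are TMM-normalized CPM, and ratios per library use a prior count of 2. Alternatives were DESeq2 1.42.0, limma-voom (limma 3.58.1), other size factors, other filters, thinned libraries, a block for the replicate number, and fits without each library in turn. Replicates of 1 group differed beyond counting noise (chi-square per degree of freedom of at least 58.8). The scripts were tested on simulated counts.

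Genes named are members called, the 5 highest and 5 lowest fold changes per comparison, isoform pairs, a fixed set of core subunits, and a few genes of each outside list. The members and lists were chosen with earlier results of these data known. Promoter windows and gene chromosomes are from RefSeq (GRCm38.p6). Shared 50-base stretches and lengths are from GENCODE transcripts. These differ in build from the counts, so they served for sequence, length and names only. One member named by this rule is not reported here.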

Additional observations from a re-analysis of the deposited data

How the results depend on the processing

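The count of members called in mutant against WT by edgeR was 1, beside 7.42% of all genes. It was 18 with DESeq2 (23.2% of all genes) and 2 without the filter (6.12%). It was also 2 with a minimum of 5 CPM in 2 libraries (10.9%) and with libraries thinned to the smallest (8.49%). With 1 library left out it ran from 0 to 2, the 2 without mutant 1, where 10.6% of all genes were called. It was 0 without WT 1, WT 2, mutant 2 or mutant 3, where edgeR called 0, 0, 37 and 6 of all genes. In null against WT it was 0 with edgeR and 8 with DESeq2, beside 0.138 and 11.2% of all genes. In mutant against null it was 0 and 1, beside 0 and 4.39% of all genes. The cause was not tested. The replicate block gave 0 members called in mutant against WT and 0 of all genes. The correlation of deviations of same-numbered libraries ran from -0.405 to 0.138. In a group of 2 libraries the deviations mirror each other, so this check cannot settle whether the numbers pair the lines. WT 1, for example, had 0.138 with null 1 and -0.138 with null 3. The main fit did not take the numbers as pairs. The members' median log2 fold change with 1 library left out ran from -0.02 to 0.23 in mutant against WT, from -0.14 to 0.02 in null against WT and from 0.05 to 0.24 in mutant against null.

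For the named genes, 843 of 929 alternative values kept direction and side of the threshold, 40 lost a call, 33 gained one and 13 changed sign. In mutant against WT, Sdha was 0.052 with the replicate block and ran from -0.24 to 0.090 with 1 library left out. Leaving out 1 library gave -0.35 to 0.011 for Ndufs1, -0.030 to 0.68 for Cox5a, -0.26 to 0.047 for Uqcrc2, -0.22 to 0.030 for Cox4i1 and -0.073 to 0.41 for Ndufv2. It gave -0.10 to 3.02 for Ndufa4l2 in null against WT, and -0.040 to 0.18 for Ndufa2 and -1.41 to 0.27 for Cox6a2 in mutant against null. An alternative that left mitochondrially encoded genes out of library sizes was not run, since the table has no such row. Depth limits the values of Ndufa4l2, Cox6a2, Atp5l, Cox4i2 and Cox7a1, which had few counts.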
